A study of Homo sapiens with 15 samples.

Results

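The interferon-stimulated genes outside the IFIT cluster are 45 genes whose chromatin was followed by ATAC-seq, an assay that uses a transposase to tag open DNA. The cells were HPAF-II, an established line from a human pancreatic adenocarcinoma. The 4 groups were cells given 1 µM Lgk974 for 24 h (4 libraries), solvent DMSO for 24 h (4 libraries), 1 µM Lgk974 for 48 h (3 libraries) and DMSO for 48 h (4 libraries). Lgk974 inhibits porcupine, the enzyme that attaches the lipid WNT proteins need to be secreted, and the series' title links WNT inhibition to interferon-stimulated gene expression. Peaks had been listed for each library separately, on hg38. Peaks of all 15 lists that shared at least 1 bp were merged into 222814 regions. The members are the 566 regions (0.254% of all) that lie inside 1 of the 45 genes or within 50 kb of either of its ends, by RefSeq gene positions, and a region is called in a library if that library has a peak in it. Nothing in the labels says that replicates were separate cultures, so p-values measure the spread between these libraries, which may be technical. A bulk library cannot tell a region open in more cells from one open wider in each cell.

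Interferons bind receptors whose kinases activate transcription factors by phosphorylation. A complex that holds STAT2 and IRF9 then binds the interferon-stimulated response element (ISRE), and interferon gamma also acts through the gamma-activated site (GAS). The genes that carry these elements encode sensors of foreign nucleic acid, enzymes that degrade viral RNA, proteins that block membrane fusion or virus release, and the regulators of the pathway itself. Many carry open promoters in epithelial cells before any interferon arrives.

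The promoter stretches below show the ISRE core in genes whose promoter window was called in all 15 libraries (ISG15, IFI6, OAS3, HERC5 and PARP9), in 2 genes with fewer calls (GBP1 and IFI44L), and 1 window with no ISRE core and no call (SAMD9L). Each is the 150 bases before a RefSeq start of the gene, 5′ to 3′ on the gene's strand, on build GRCh38.p14, a patch release of hg38. For PARP9 this start lies inside the listed gene. The stretch before the outer PARP9 start (chr3:122564785-122564934) is not shown. Its window had no ISRE core and was called in all 15 libraries. Capitals mark matches to the ISRE core, which is GAAA, any 2 bases and GAAA again, or on the other strand TTTC, any 2 bases and TTTC again. In IFI6 a further match begins upstream of the stretch, so its last 4 bases open it.
ISG15, chr1:1013347-1013496, plus strand: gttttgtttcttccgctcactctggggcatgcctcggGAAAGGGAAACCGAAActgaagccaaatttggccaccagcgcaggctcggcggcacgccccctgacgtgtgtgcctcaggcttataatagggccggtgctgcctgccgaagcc
IFI6, chr1:27672193-27672342, minus strand: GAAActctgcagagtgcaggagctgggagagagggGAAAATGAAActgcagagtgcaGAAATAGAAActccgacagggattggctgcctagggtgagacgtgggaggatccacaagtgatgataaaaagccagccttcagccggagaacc
OAS3, chr12:112938324-112938473, plus strand: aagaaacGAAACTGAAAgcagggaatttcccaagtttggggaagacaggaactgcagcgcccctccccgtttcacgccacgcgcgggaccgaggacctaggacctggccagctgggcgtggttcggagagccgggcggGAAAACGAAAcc
HERC5, chr4:88456969-88457118, plus strand: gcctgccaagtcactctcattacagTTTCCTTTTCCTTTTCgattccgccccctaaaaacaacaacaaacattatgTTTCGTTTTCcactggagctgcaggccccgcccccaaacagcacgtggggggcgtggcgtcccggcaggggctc
PARP9, chr3:122564301-122564450, minus strand: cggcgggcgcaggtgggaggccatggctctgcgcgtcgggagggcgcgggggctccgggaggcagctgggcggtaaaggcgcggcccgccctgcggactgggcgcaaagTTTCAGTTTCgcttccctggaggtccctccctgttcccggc
GBP1, chr1:89065209-89065358, minus strand: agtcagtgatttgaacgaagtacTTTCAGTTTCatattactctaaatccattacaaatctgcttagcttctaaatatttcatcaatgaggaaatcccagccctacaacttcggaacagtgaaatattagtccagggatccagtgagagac
IFI44L, chr1:78620298-78620447, plus strand: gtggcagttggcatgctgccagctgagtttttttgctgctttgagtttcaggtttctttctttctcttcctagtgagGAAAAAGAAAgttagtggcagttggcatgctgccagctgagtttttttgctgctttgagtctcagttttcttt
SAMD9L, chr7:93148386-93148535, minus strand: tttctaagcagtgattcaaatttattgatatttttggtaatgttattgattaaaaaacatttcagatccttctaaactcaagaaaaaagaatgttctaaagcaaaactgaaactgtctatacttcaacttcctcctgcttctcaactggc

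The lists held 53610 to 127886 peaks, and 194 to 364 of the 566 member regions were called per library. Depth is unknown, since no read counts entered the work, and a region that is not called may be open below that library's threshold. DMSO 24 h replicate 3 stood apart from the other libraries, with a mean Jaccard index (shared over all called regions) of 0.376 and 36.6% of its regions found nowhere else. The 2 shortest lists were those of replicate 3 of Lgk974 at 24 h and at 48 h. Each comparison was therefore repeated with the 53610 peaks of highest -log10 q from every list, called equal lists here, and without these 3 libraries. Where both were done at once, lists were cut to 76756 peaks, the length of the shortest remaining list. As a check of the inhibitor, an end of AXIN2, a WNT target gene, had a peak in 0 of 7 Lgk974 and 7 of 8 DMSO libraries (exact permutation p = 0.00204, adjusted p = 0.543), and with equal lists in none of either. An end of all 10 epithelial marker genes was called in every library. Of the 14 markers of immune, endothelial, fibroblast, acinar and liver cells, PECAM1, DCN, PRSS1 and ALB were among those with no called end in any library, while CD3E, CD14 and COL1A1 had one in all 15.

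The first question was whether the promoters of the interferon-stimulated genes were open at all. RefSeq promoter windows, 250 bases before to 50 after a start, were at hand for 36 of the 45 genes. Of these, 30 (83.3%) had a window with a peak in all 15 libraries, against 52.1% of all protein-coding genes in the same table. The 6 others were GBP1, GBP3, GBP4, IFI44L, SAMD9L and XAF1. A match to the ISRE core lay in a window of 24 of the 36 genes (66.7%), against 4.16% of 15812 protein-coding genes. GAS, TTCNNNGAA, matched in 14 (38.9%), against 8.97%. Both motifs were present in 9 genes, and in 5 of these the matches shared bases. The TCF/LEF core, ATCAAAG or CTTTGAT, through which WNT signalling acts on its target genes, matched in none of the 36, against 2.62%. Each motif was read on both strands, and a match describes letters, not binding. Windows with an ISRE core were called in all libraries in 20 of 24 genes, and windows without one in 10 of 12, the same share of 83.3%.

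The strength of the promoter peaks differed widely between genes. The STAT2 promoter had one of the strongest peaks in each list, with between 0.00560% and 0.283% of a library's peaks above it by the authors' -log10 q. PLSCR1, which encodes a phospholipid scramblase, followed with 0.393% to 2.45% of peaks above it. The shared promoter of PARP9 and DTX3L, whose proteins form a mono-ADP-ribosylation and ubiquitin ligase complex, had 1.84% to 10.3% above it. The ISG15 promoter was weaker, with 10.7% to 31.3% of peaks above it, and EPSTI1 had 23.9% to 79.1%. IFI44L had a promoter peak in 2 of 7 Lgk974 and 2 of 8 DMSO libraries, and these 4 peaks lay low in their lists, with 76.1% to 92.4% of peaks above them.

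**Figure D1:**
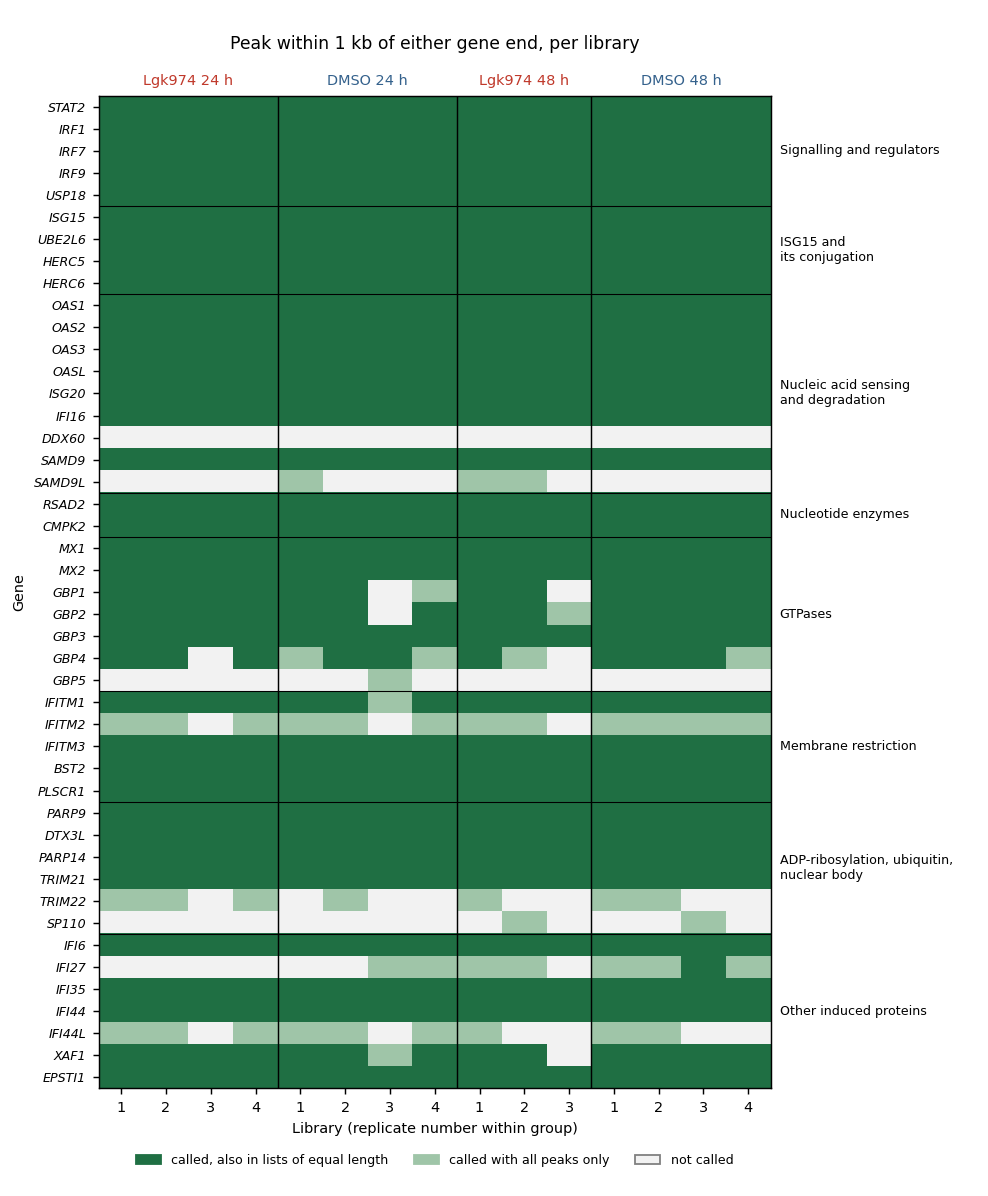
Calls of a peak within 1 kb of either gene end for the 45 genes (rows, in groups by role) in the 15 libraries (columns, by treatment and time). Dark green marks a call that is also in the equal lists, light green a call with all peaks only, and pale grey no call. 33 genes are called in every library, and the gaps of the 12 others fall in libraries of both treatments, except at GBP4 and XAF1 (Lgk974 only) and GBP2 (DMSO only).

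Counted at both ends of each gene, a peak within 1 kb was found in all 15 libraries for 33 of the 45 genes (73.3%), against 54.3% of all protein-coding genes. Signalling and regulator genes were complete: STAT2, IRF9, IRF1, IRF7 (the factor that amplifies interferon production) and USP18 (which removes ISG15 from proteins and restrains the receptor) all had a called end in all 15 libraries. So did ISG15, a ubiquitin-like protein, with UBE2L6, its conjugating enzyme, HERC5, its human ligase, and the related HERC6. RSAD2 (viperin), which makes a chain-terminating nucleotide, and its neighbour CMPK2, a nucleotide kinase, were called in every library as well.

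Among the 9 genes of nucleic acid sensing and degradation, 7 had a called end in every library. These were OAS1, OAS2 and OAS3, which make the second messenger that activates RNase L, OASL, their relative that binds RIG-I, the exonuclease ISG20, the DNA sensor IFI16, and SAMD9, a poxvirus restriction factor. DDX60, a helicase, had no called end in any library, but its RefSeq promoter window lies inside the listed gene and was called in all 15. SAMD9L had a called end in 2 of 7 Lgk974 libraries, both at 48 h, and in 1 of 8 DMSO libraries, at 24 h.

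Of the 7 GTPases 3 (42.9%), MX1, MX2 and GBP3, had a called end in all 15 libraries. GBP1, whose protein coats intracellular bacteria and vacuoles, was called in 6 of 7 libraries with Lgk974 and 7 of 8 with DMSO, and GBP2 in 7 and 7. GBP4 was called in 5 of 7 Lgk974 and all 8 DMSO libraries, and GBP5 in 0 of 7 and 1 of 8. The gaps at GBP1 and GBP2 all lay in DMSO 24 h replicate 3 and Lgk974 48 h replicate 3, which are among the libraries that stand apart. Both gaps at GBP4 lay in the 2 shortest lists. With equal lists GBP1 was called in 6 and 6 libraries, and GBP4 in 4 of 7 Lgk974 and 5 of 8 DMSO libraries.

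Of the membrane restriction factors, IFITM1 and IFITM3, which hinder fusion of viral and host membranes, BST2, which tethers budding virions, and PLSCR1 had a called end in every library. IFITM2 had one in 5 of 7 Lgk974 and 7 of 8 DMSO libraries, with all gaps in the 3 libraries that stand apart. PARP9, DTX3L, PARP14, a mono-ADP-ribosyltransferase, and TRIM21, a cytosolic antibody receptor, were called throughout. TRIM22, an antiviral ubiquitin ligase, was called in 4 of 7 libraries with Lgk974 and 3 of 8 with DMSO. SP110, a nuclear body protein, was called at its listed ends in 1 and 1, while a promoter window inside the gene was called in all 15.

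Among the other induced proteins, IFI6, IFI35, IFI44 and EPSTI1 had a called end in every library, XAF1, which antagonises the caspase inhibitor XIAP, in 6 of 7 Lgk974 and 8 of 8 DMSO libraries, with the gap in the short list of Lgk974 48 h replicate 3, and IFI44L in 4 of 7 and 5 of 8. IFI27, a small hydrophobic protein, had a called end in 0 of 4 Lgk974 and 2 of 4 DMSO libraries at 24 h, and in 2 of 3 Lgk974 and 4 of 4 DMSO libraries at 48 h. Lgk974 libraries were thus lower at both times, but the groups overlapped and the difference did not pass (exact permutation test, unadjusted p = 0.0918). Its RefSeq promoter windows, which lie inside the listed gene, were called in all 15 libraries.

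Only SAMD9L, IFITM2, TRIM22, IFI27 and IFI44L had ends called in 3 to 12 libraries, where a test could be made. By the two-sided exact permutation test within time, 0 of the 5 passed an unadjusted p of 0.05, against 4.23% of 2129 protein-coding genes, and 0 passed an adjusted one. With only peaks of -log10 q of at least 5, IFI27 was called in 0 of 4 libraries with Lgk974 and 2 of 4 with DMSO at 24 h, and in 1 of 3 and 4 of 4 at 48 h (exact permutation test, unadjusted p = 0.0306).

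The 566 member regions lie on 15 chromosomes, 4 (TRIM22) to 27 (IRF1) per gene with a median of 18. Neighbouring genes share regions: 140 regions belong to more than 1 listed gene, and for 290 (51.2%) the nearest protein-coding gene is not a listed one. At gene ends lay 67 regions, of which 34 (50.7%) were called in every library, with a median width of 903 bp. Inside genes lay 90, of which 19 (21.1%) were called in every library, and outside genes 409, of which 91 (22.2%) were. In all, 144 members (25.4%) were called in all 15 libraries, against 15.9% of all regions and 17.97% of regions within 50 kb of any protein-coding gene. Another 150 (26.5%) were called in 1 library only.

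The next comparison set the members' calls against those of every region with the same number of calling libraries. This detection excess, in percentage points, is the mean of called minus the rate at which that library calls regions of the same frequency, so it sums to 0 over the 15 libraries and the treatments mirror each other. With all peaks the excess was 0.56 ± 1.05 points in Lgk974 libraries (SD, n = 7) and -0.49 ± 1.40 in DMSO libraries (SD, n = 8). The difference was 0.91 points at 24 h and 0.98 at 48 h, smaller than the spread between libraries, and 6 of 7 Lgk974 libraries lay above the DMSO mean. With equal lists the excess was 1.80 ± 1.05 points in Lgk974 and -1.57 ± 2.19 in DMSO libraries, a difference of 3.47 points at 24 h and 3.04 at 48 h, and 7 of 7 Lgk974 libraries lay above the DMSO mean. At 24 h the 4 Lgk974 libraries had 2.53, 2.06, 3.67 and 1.65 points, against -3.93, -2.40, 0.94 and 1.44 points in the 4 DMSO libraries. At 48 h the 3 Lgk974 libraries had 0.71, 1.10 and 0.85 points, against -1.99, -4.12, -2.87 and 0.35 points in the 4 DMSO libraries. The treatments did not overlap at either time with equal lists, and they did overlap with all peaks. Since the members were chosen with results known, no test is given.

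**Figure D2:**
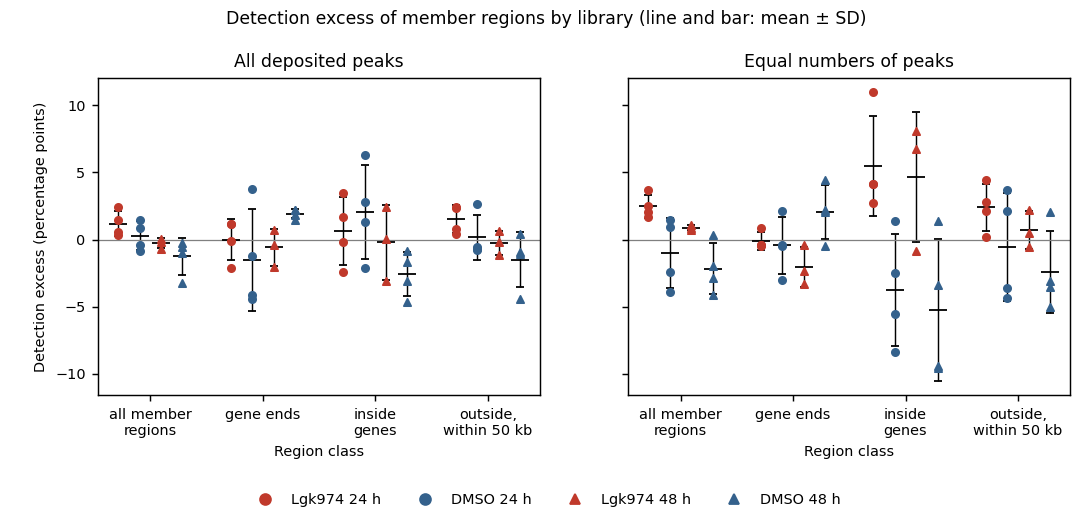
Detection excess of the member regions (percentage points) per library for all members and by place, with all peaks (left) and equal lists (right). Points are libraries (circles 24 h, triangles 48 h, red Lgk974, blue DMSO), with the mean and SD of each group. With equal lists, all 7 Lgk974 libraries lie above the mean of the 8 DMSO libraries for all members and for regions inside and outside genes. Gene ends do not show this.

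By place, the excess of Lgk974 libraries with equal lists lay away from gene ends. A region called in all libraries has an excess of 0 by construction. With all peaks 50.7% of end regions were of this kind, against 21.1% inside and 22.2% outside genes. The mean at gene ends is thus held closer to 0, and part of the contrast by place was set in advance. Regions inside the genes had 5.14 ± 3.86 points in Lgk974 and -4.50 ± 4.48 in DMSO libraries (43 regions). Regions outside had 1.68 ± 1.74 and -1.47 ± 3.47 (209 regions), and gene ends had -0.94 ± 1.42 and 0.82 ± 2.32 (44 regions). At gene ends the difference was 0.32 points at 24 h and -4.10 at 48 h. There 1 of 7 Lgk974 libraries lay above the DMSO mean. With all peaks the difference inside genes (90 regions) was -1.45 points at 24 h and 2.36 at 48 h, or 0.45 over both. Lists and regions both differ from those of the equal lists, and what moved the value was not tested. By gene, with all peaks, the difference between Lgk974 and DMSO ran from -7.23 points at PARP14 to 7.36 at ISG15, with a median of 1.57, and 28 of the 45 genes lay above 0. Since 140 regions belong to more than 1 listed gene, these values are not separate. No such count over all genes was made, so the 28 are not read as a lean. ISG15 was followed by OASL with 7.11 and XAF1 with 6.68, and PARP14 by IRF7 with -6.51 and TRIM21 with -6.22. Genes of a role group lay on both sides: in the GTPases GBP2 had 5.58 points while GBP4 had -4.65, and among the regulators IRF9 had 2.86.

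Single regions were tested where 3 to 12 libraries called them, by the two-sided exact permutation test of the share of libraries called, with labels permuted within each time. Of the 566 members 153 could be tested, and 8 (5.23%) were called more often with Lgk974 at an unadjusted p under 0.05, where 2.96% of all 60356 tested regions were. Another 4 (2.61%) were called less often, where 3.08% of all tested regions were. After Benjamini-Hochberg adjustment over all tested regions 0 members passed, as did 0% of all regions, and the smallest adjusted p of a member was 0.418. The median difference in the share of libraries called was 0.04 over tested members and -0.04 over all tested regions. Leaving out any 1 library, which also leaves fewer permutations, gave 1 to 6 members called more often (0.559% to 3.70% of those tested) and 1 to 4 called less often. Over all tested regions the shares in these runs were 0.864% to 3.49% and 1.03% to 2.43%. In 6 of the 15 runs more members were called less often than more often, with 1 against 4 without Lgk974 48 h replicate 2. Without the 3 libraries that stand apart, 10 of 354 tested members (2.82%) were called more often and 0 less often, where 2.50% and 0.575% of all regions were. Here 55111 of the 111899 tested regions were called in every remaining library and could not differ, so these shares are unlike those above.

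**Figure D3:**
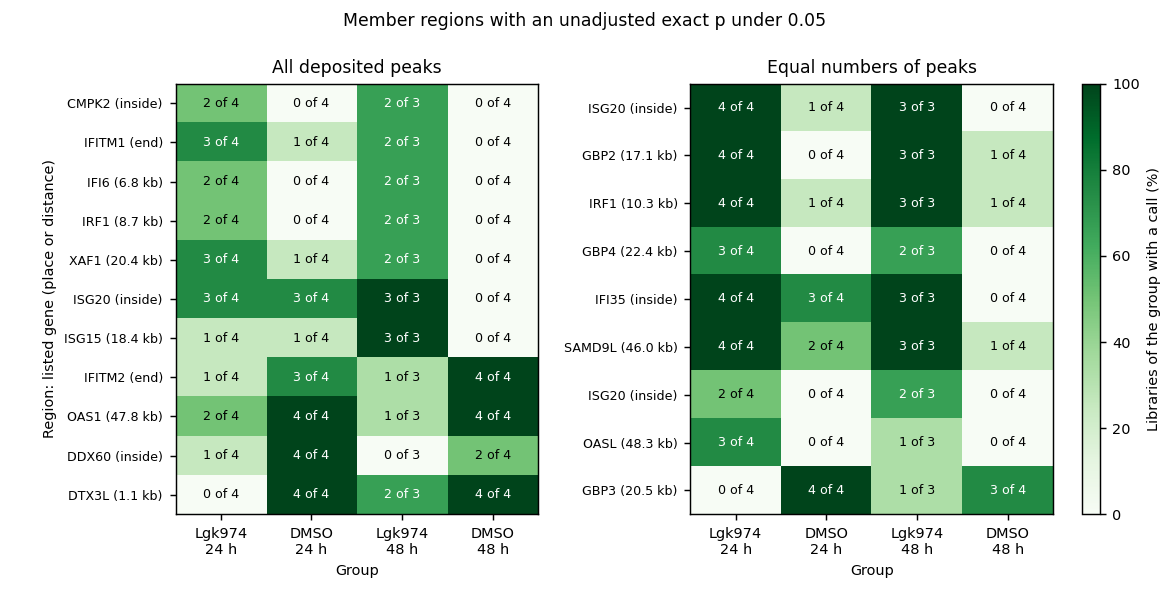
Number of libraries of each group in which a member region was called, for 11 of the 12 regions past an unadjusted exact p of 0.05 with all peaks (left) and 9 of the 11 with equal lists (right). Rows name the listed gene and the region's place or distance, and shading gives the percent of the group's libraries. The DTX3L region, which lies nearer to the unlisted PARP15, is called in 2 of 7 Lgk974 and in all 8 DMSO libraries with all peaks.

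Of 7 regions called more often with Lgk974, 2 lay inside a listed gene. The region inside ISG20 (chr15:88639979-88640504) was called in 3 of 4 libraries with Lgk974 and 3 of 4 with DMSO at 24 h, and in 3 of 3 and 0 of 4 at 48 h (exact permutation p = 0.0469). The region inside CMPK2 (chr2:6848026-6848380) was called in 2 of 4 libraries with Lgk974 and 0 of 4 with DMSO at 24 h, and in 2 of 3 and 0 of 4 at 48 h (exact permutation p = 0.0306). The same counts and p were found 6787 bp from IFI6, which encodes a mitochondrial inhibitor of apoptosis (chr1:27658909-27659277), and 8670 bp from IRF1 (chr5:132499443-132499737). At an end of IFITM1 (chr11:316145-316546) and 20402 bp from XAF1 (chr17:6796049-6796608) the counts were 3 of 4 Lgk974 and 1 of 4 DMSO libraries at 24 h, and 2 of 3 and 0 of 4 at 48 h. A region inside AGRN, 18384 bp from ISG15 (chr1:1032924-1033395), was called in 1 of 4 and 1 of 4 libraries at 24 h, and in 3 of 3 Lgk974 and 0 of 4 DMSO libraries at 48 h. Many peaks of these regions were weak too, with a -log10 q in Lgk974 libraries from 3.19 near IFI6 to 20.2 inside CMPK2. With equal lists the CMPK2, IRF1, XAF1 and ISG15 regions were each called in 1 Lgk974 and 0 DMSO libraries. Those of IFI6 and IFITM1 had no call with equal lists, and that of ISG20 is given below. None of these 7 kept an unadjusted p under 0.05 in more than 8 of the 22 or 23 alternatives run on it, which says nothing of the whole set of 8.

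Regions called less often with Lgk974 numbered 4. The one with the lowest p lay 1051 bp from DTX3L and 648 bp from PARP15, which is not a listed gene (chr3:122576254-122577002). It was called in 0 of 4 libraries with Lgk974 and 4 of 4 with DMSO at 24 h, and in 2 of 3 and 4 of 4 at 48 h (exact permutation p = 0.00612). Its peaks were weak, with a -log10 q of 4.00 and 6.27 in the 2 Lgk974 libraries at 48 h, and from 4.27 to 8.30 in the 8 DMSO libraries, and with equal lists it was called in 0 of 7 and 1 of 8. A region inside DDX60 (chr4:168305013-168305453) was called in 1 of 4 libraries with Lgk974 and 4 of 4 with DMSO at 24 h, and in 0 of 3 and 2 of 4 at 48 h. At an end of IFITM2 (chr11:309184-309605) the counts were 1 of 4 and 3 of 4 at 24 h, and 1 of 3 and 4 of 4 at 48 h. Inside RPH3A, 47773 bp from OAS1 (chr12:112858764-112859189), they were 2 of 4 and 4 of 4 at 24 h, and 1 of 3 and 4 of 4 at 48 h. With equal lists the DDX60 and IFITM2 regions had no call in any library, and the one near OAS1 had 0 in Lgk974 and 2 in DMSO libraries.

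Some regions separated the treatments completely at a time. At 24 h 1 member was called in all 4 Lgk974 libraries and in no DMSO library, and 1, the DTX3L region, in all 4 DMSO libraries and no Lgk974 library (0.0319% and 0.0871% of all regions). At 48 h 3 members, among them the regions near ISG15 and inside ISG20, were called in all 3 Lgk974 libraries and in no DMSO library, and 1 near IRF1 (chr5:132447983-132448352) in all 4 DMSO libraries and no Lgk974 library (0.178% and 0.292% of all regions). Without Lgk974 48 h replicate 3, whose list is short, the count of 3 became 25 of 563 members (4.44%), where 2.49% of all regions separated in that way. Without Lgk974 48 h replicate 2, the counts at 48 h were 5 and 4 (0.903% and 0.722% of members), where 0.230% and 0.661% of all regions separated so. Whether the treatment difference changed between 24 h and 48 h was tested in the same way, and 0 members passed adjustment, while 3 had an unadjusted p under 0.05, against 1.36% of all tested regions. These 3 were the regions of ISG15 and ISG20 above and one near IFITM2 (chr11:258128-258538), called in 1 of 4 libraries with Lgk974 and 3 of 4 with DMSO at 24 h, and in 2 of 3 and 0 of 4 at 48 h.

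With equal lists the split leaned to Lgk974. Of 296 member regions 91 were tested, and 10 (10.99%) were called more often with Lgk974, against 7.61% of 26350 tested regions, while 1 (1.10%) was called less often, against 6.83%. Again 0 passed adjustment, with a smallest adjusted p of 0.0821. Separation in favour of Lgk974 was found at 2 members at 24 h and 3 at 48 h (0.475% and 0.797% of all regions), and in favour of DMSO at 1 and 0 (0.139% and 1.1%). Without the 3 libraries that stand apart, and with lists of 76756 peaks, 5 of 288 members (1.74%) were called more often and 0 less often. Of all regions 2.05% and 1.41% were. But 48213 of the 87504 tested regions were then called in every remaining library and could not differ. Members were richer in such regions with all peaks (25.4% against 15.9% called in all 15 libraries). These shares therefore do not place members above or below the background.

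Of these 11 regions, those in ISG20, near GBP2 and near IRF1 described next were called in all 15 libraries with all peaks, so that equal lists compare the place of the peak in its list. The second region inside ISG20 (chr15:88648318-88649406) was called with equal lists in 4 of 4 Lgk974 and 1 of 4 DMSO libraries at 24 h and in 3 of 3 and 0 of 4 at 48 h (exact permutation p = 0.00204, adjusted p = 0.0839). The region 17066 bp from GBP2 (chr1:89088389-89089066) had 4 of 4 and 0 of 4 at 24 h, and 3 of 3 and 1 of 4 at 48 h (exact permutation p = 0.00204, adjusted p = 0.0839). The region 10266 bp from IRF1 (chr5:132501039-132501780) had 4 of 4 Lgk974 and 1 of 4 DMSO libraries at 24 h, and 3 of 3 and 1 of 4 at 48 h. A region inside IFI35 (chr17:43010695-43011214) had 4 of 4 and 3 of 4 at 24 h, and 3 of 3 and 0 of 4 at 48 h.

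Other regions of this kind were farther from their gene, apart from the trimmed form of the first ISG20 region (chr15:88639997-88640504), called in 2 of 4 libraries with Lgk974 and 0 of 4 with DMSO at 24 h and in 2 of 3 and 0 of 4 at 48 h. A region lay 48345 bp from OASL and 44674 bp from P2RX7, its nearest protein-coding gene (chr12:121087591-121088202). It had 3 of 4 and 0 of 4 at 24 h, and 1 of 3 and 0 of 4 at 48 h. One 22408 bp from GBP4 (chr1:89221350-89221809) had 3 of 4 and 0 of 4 at 24 h, and 2 of 3 and 0 of 4 at 48 h. One inside HEPACAM2, 45956 bp from SAMD9L (chr7:93194341-93194837), had 4 of 4 and 2 of 4 at 24 h, and 3 of 3 and 1 of 4 at 48 h. The only region called less often lay 20536 bp from GBP3, inside KYAT3 (chr1:88985048-88986144), with 0 of 4 Lgk974 and 4 of 4 DMSO libraries at 24 h, and 1 of 3 and 3 of 4 at 48 h (exact permutation p = 0.0135). Without the 3 libraries that stand apart, and with lists of 76756 peaks, 2 of these 11 regions kept an unadjusted p under 0.05. Among them was the trimmed ISG20 region (exact permutation p = 0.0133). Libraries and list length changed together here, so the losses cannot be put down to the libraries alone.

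For the 144 members called in all 15 libraries, calls cannot differ, so the strongest -log10 q of each region was ranked within each library among the 35389 regions called in all libraries. A rank of 100 is the strongest of these regions and the same number of regions is ranked in every library, but the value is the authors' and ranks can also move with depth. This comparison was added after the calls were seen. By the exact permutation test with adjustment over all 35389, 4 members (2.78%) ranked higher with Lgk974 and 2 (1.39%) lower, against 3.24% and 2.04% of all these regions, shares near those of the background. The median difference was 0.23 percentile points over members and -0.24 over all.

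**Figure D4:**
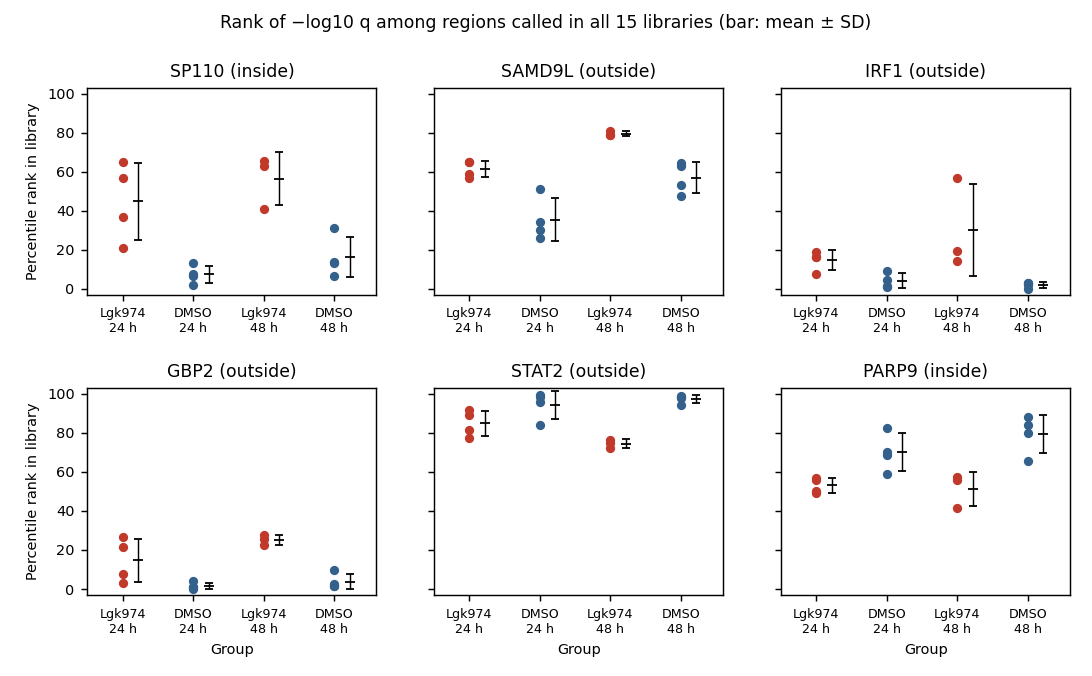
Percentile rank of the strongest -log10 q in each library, among the 35389 regions called in all 15 libraries, for the 6 member regions past an adjusted p of 0.05. Points are libraries (red Lgk974, blue DMSO) and bars the mean and SD of each group. SP110, SAMD9L, IRF1 and GBP2 regions rank higher in Lgk974 libraries, STAT2 and PARP9 regions lower.

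The largest rise was inside SP110 (chr2:230170343-230171072). The Lgk974 libraries ranked at 56.9, 65.0, 20.9 and 36.6 at 24 h and at 65.7, 62.9 and 40.9 at 48 h. The DMSO libraries ranked at 13.05, 2.14, 6.82 and 7.67 at 24 h and at 13.9, 31.0, 13.4 and 6.87 at 48 h. The treatments did not overlap within either time, with means of 49.8 ± 17.3 in Lgk974 (n = 7) and 11.9 ± 8.77 in DMSO (n = 8) libraries, a difference of 38.8 points (exact permutation test, adjusted p = 0.0190). By the rank of the deposited fold the difference was 39.4 points, with an adjusted p of 0.102 by the exact permutation test.

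The regions near IRF1 and GBP2 that the equal lists named also ranked higher. Near IRF1 (chr5:132501039-132501780) the ranks were 16.2, 18.8, 7.41 and 16.6 in Lgk974 libraries at 24 h and 19.2, 14.2 and 57.0 at 48 h, against 1.68, 1.14, 9.44 and 4.52 in DMSO libraries at 24 h and 0.0932, 3.17, 3.10 and 1.80 at 48 h. The groups overlapped by 1 pair of libraries at 24 h and not at 48 h (difference 19.3 points, exact permutation test, adjusted p = 0.0258). Near GBP2 and GBP1 (chr1:89088389-89089066) the mean rank was 19.2 ± 9.74 in Lgk974 and 2.64 ± 3.03 in DMSO libraries (difference 17.4 points, exact permutation test, adjusted p = 0.0258). Near SAMD9L and SAMD9 (chr7:93160124-93161894) it was 69.2 ± 10.2 and 46.3 ± 14.6 (difference 24.2 points, exact permutation test, adjusted p = 0.0190), but by fold the difference was 1.53 points.

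Lower ranks with Lgk974 were found inside PARP9 (chr3:122533784-122534667), a region within 50 kb of DTX3L too. The Lgk974 libraries ranked at 50.4, 56.6, 56.0 and 49.4 at 24 h and at 55.7, 57.1 and 41.4 at 48 h, against 82.6, 59.1, 70.2 and 68.6 in DMSO libraries at 24 h and 83.8, 87.99, 65.6 and 79.99 at 48 h. Every Lgk974 library lay below every DMSO library (difference -22.5 points, exact permutation test, adjusted p = 0.0258). Inside CS, which encodes citrate synthase, 49243 bp from STAT2 (chr12:56291321-56292354), the mean rank was 80.4 ± 7.32 in Lgk974 and 95.9 ± 5.12 in DMSO libraries (difference -16.2 points, exact permutation test, adjusted p = 0.0375). By fold, 0 members passed, and without the 3 libraries that stand apart 0 of 55111 regions passed, the smallest adjusted p being 0.0514. All 6 differences kept their sign in both, and ranged there from 15.8 to 45.4 points for the higher and from -13.8 to -11.0 for the lower regions without those libraries.

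The other genes of the pathway were described in the same way. The ligands had 3 of 22 tested regions (13.6%) called more often with Lgk974 and 0 less often. Of all tested regions 2.96% and 3.08% were. An end of IFNB1, IFNE, IFNK, IFNL2 and IFNL3 was called in no library, while IFNL1 had a called end in all 15. The receptors had 1 of 14 (7.14%) more often and 0 less often, the kinases, factors and inhibitors 4 of 64 (6.25%) and 1 of 64 (1.56%), and the IFIT cluster 1 of 13 and 1 of 13 (7.69% each), with 0 past adjustment in each list. By role, the 8 members called more often lay in the signalling (1), ISG15 (1), nucleic acid (2), nucleotide enzyme (1), membrane (1) and remaining (2) groups, and the GTPases and the ADP-ribosylation group had 0 of 14 and 0 of 12. The ends of IFNAR1 and IFNGR1, receptor chains for type I and type II interferon, and those of the kinases JAK1, JAK2 and TYK2 were called in every library. Of the other receptor genes, IFNAR2 and IFNLR1 had a called end in 6 of 7 Lgk974 and 8 of 8 DMSO libraries, IL10RB in 5 of 7 and 7 of 8, and IFNGR2, the other type II chain, in 1 of 7 and 3 of 8.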

How the data were processed

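ATAC-seq peak lists of 15 HPAF-II libraries were analysed. Every sample is labelled HPAF-II, although KATO III culture is given in the labels too. Per the submitters' processing notes, reads were handled on hg38 with tools that include Bowtie2, MACS2, HOMER, DiffBind and DESeq2, with their order and roles not stated. Versions, settings and any read shift for the transposase were not given in the sources used here. Such steps set which weak peaks are listed. Each deposited peak carries a fold (a linear ratio over background) and a -log10 q, both as the authors' peak caller gave them. Peaks were called per library, not on pooled samples.

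The members, role groups and other lists were chosen with earlier results of these data known. Of 1413185 peaks, 1138 lay on other contigs than chromosomes 1 to 22 or X and were not used, and 1 damaged line was read as chromosome 1. Peaks were merged and tested with numpy 2.4.6, scipy 1.17.1 and pandas 2.3.3 under Python 3.11.15, and drawn with matplotlib 3.10.9. Differences in the share of libraries called are the mean of the 24 h and 48 h differences, Lgk974 minus DMSO. The exact permutation test used 70 × 35 = 2450 assignments, so the smallest p is 0.0286 at either time and 0.000408 over both. It was tested on simulated calls. Regions named have an unadjusted p under 0.05, with all peaks or equal lists, or separate the treatments at 1 time, and some that meet this rule are not reported here. The rank comparison, with an adjusted p under 0.05, was added later. No count model and no interval on reads could be applied.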

Additional observations from a re-analysis of the deposited data

Results flagged for a closer look

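Of 48 sets of 4 libraries of a group examined for a library far from the other 3, 4 had one. Chance would give about 1 in 20 if the sets were independent, but they share libraries and regions. The 4 are therefore not read as more than chance would give. In DMSO at 24 h, the detection excess of member regions outside genes with all peaks was highest in 1 library, at 2.68 percentage points, with a gap to the next that made up 0.931 of the range. In Lgk974 at 24 h with equal lists, the excess of gene ends was highest in 1 library, at 0.852 points (0.901 of the range). In Lgk974 at 24 h, replicate 3 had the fewest member regions called, 196, against 312 to 316 in the other replicates, and it also had the shortest list, with 53610 peaks. In DMSO at 48 h, replicate 3 had the highest rank of the region near GBP2, 9.55, against 1.36 to 2.59 in the other replicates. None of the treatment differences at single member regions passed adjustment for a change between 24 h and 48 h. What sets these libraries apart was not tested.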

How the results depend on the processing

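The adjusted counts of 0 (regions, times and gene ends) were 0 in the alternatives too, which is no sign of stability, since fewer libraries or the block leave a smallest possible p of up to 0.0156. With all peaks, Lgk974 libraries called 8 members more often and 4 less often than DMSO libraries. With equal lists 1 was called less often (1.10% of tested members, against 6.83% of all tested regions). Where peaks had to cover 50% of a region, 2 were called less often (1.03% against 2.98%). Within 10 kb 5 were called more often (7.94% against 2.96%), a higher share than the 5.23% within 50 kb. Without the 3 libraries that stand apart 0 were called less often, against 0.575%, with regions called in every remaining library counted as tested. With lists of 76756 peaks and without those libraries (chosen after seeing the data, as was the fold rank) 5 were called more often and 0 less often. That was 1.74% and 0% of tested members, against 2.05% and 1.41% of all regions, again with regions that could not differ. Leaving out 1 library at a time gave 1 to 6 more often and 1 to 4 less often, with the larger count on the less often side in 6 of 15 runs. The cause of these moves was not tested.

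Separation at 24 h (Lgk974 only 1, DMSO only 1) became 2 and 1 with equal lists (0.676% and 0.338% of members, against 0.475% and 0.139% of all regions). It was 0 for DMSO at -log10 q of at least 5 and at 50% cover (all regions 0.0935% and 0.0817%), and 0 for Lgk974 within 10 kb (0.0319%). Without the 3 libraries it was 2 and 2 (0.414% each, against 0.672% and 0.412%). With equal lists without them it was 3 and 0 (0.817% and 0%, against 1.10% and 0.748%). Over libraries left out singly it was 1 to 1 for Lgk974 and 1 to 2 for DMSO. At 48 h (3 and 1) it became 0 for DMSO with equal lists (all regions 1.10%) and 2 for DMSO at 50% cover (0.353% of members, against 0.336% of all regions). Within 10 kb it was 1 and 0 (0.394% and 0%, against 0.178% and 0.292%). Without the 3 libraries it was 25 for Lgk974 (5.18% against 3.12%). With equal lists without them it was 3 for DMSO (0.817% against 1.31%). Left out singly, libraries gave 3 to 25 for Lgk974 and 1 to 4 for DMSO.

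The detection excess (Lgk974 minus DMSO, in points) was 0.91 at 24 h, 0.98 at 48 h and 0.95 over both. With equal lists it was 3.47, 3.04 and 3.26, at 50% cover 2.33, 2.16 and 2.24, within 10 kb 2.06 at 48 h, and with equal lists without the 3 libraries 2.91, 3.02 and 2.97. Left out singly, libraries gave 0.472 to 1.56, 0.462 to 1.29 and 0.668 to 1.33. At gene ends 1 gene, IFI27, passed the unadjusted threshold at -log10 q of at least 5.

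Rank counts (4 higher, 2 lower) were 1 higher with equal lists, 0 higher at 50% cover, 1 and 1 within 10 kb, and 0 and 0 each by fold, without the 3 libraries, and with equal lists without them. Left out singly, libraries gave 1 to 7 higher and 1 to 3 lower, the 7 without DMSO 24 h replicate 3.

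With the replicate block, 1 member was more often called and 0 less often, and 0 and 0 members passed by rank, where the smallest adjusted p over all regions was 0.169. Same-numbered libraries correlated at 0.102 to 0.142 at 24 h and at -0.0321 to 0.146 at 48 h, not all over 0.1, so the numbers were not taken to pair the libraries. With all peaks 4 of 7, and with equal lists 5 of 7, correlated best with their own number. How many would do so by chance was not computed. A batch shared by replicate number was not tested, and the main p-values take none into account. A lost call with the replicate block is not a weaker effect. Peak lists limit all of this: depth is unknown and a missing call may be an open region under the threshold.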
